A study of Mus musculus with 6 samples.

Results

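Transcripts of Schwann cells, the glia of peripheral nerves, and of perineurial cells, the sheath cells around nerve bundles, were followed in libraries labelled as fibroadipogenic progenitors (FAPs). FAPs are stromal cells of the space around muscle fibres, named for their capacity to form fibroblasts and fat cells. The 8 genes were taken by name from a table of 33276 genes: Sox10, S100b, Cdh19, Mbp, Prx, Ngfr, Ncam1 and Itih5. The groups were 3 circulating FAP libraries, from peripheral blood, and 3 muscle FAP libraries. All 6 came from mice with middle cerebral artery occlusion (MCAO), which blocks an artery of the brain to model ischaemic stroke, and the labels give MCAO in place of a strain name. Age, sex, sorting markers and the time after occlusion are not given in the sources used here. Whether each library is a different mouse is not stated; p-values therefore describe spread among libraries, which may be technical.

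Muscle nerves hold myelinating Schwann cells, which wrap single large axons, and non-myelinating Schwann cells, which hold bundles of thin axons. The transcription factor SOX10 specifies the Schwann lineage and with EGR2 switches on the genes of peripheral myelin. Neuregulin from the axon acts on ERBB2 and ERBB3 receptors to keep Schwann cells alive and to set myelin thickness. Perineurial cells are flattened cells joined by tight junctions that form the barrier between the nerve and the surrounding tissue.

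Promoters of S100b, Prx and Itih5 are shown because these are 3 of the 4 members with the lowest p in the comparison described further on. The sequences are those of RefSeq on build GRCm38.p6, from 250 bases before to 50 after the start of the gene, 5′ to 3′. S100b, Prx, Ngfr and Itih5, 4 of the 8 members, matched the promoter table by symbol. Capitals mark matches to a SOX motif, ACAAAG or ACAATG, or to an EGR motif, GCGTGGG, on either strand; no match overlapped another.
S100b (chr10:76253586-76253885, plus strand): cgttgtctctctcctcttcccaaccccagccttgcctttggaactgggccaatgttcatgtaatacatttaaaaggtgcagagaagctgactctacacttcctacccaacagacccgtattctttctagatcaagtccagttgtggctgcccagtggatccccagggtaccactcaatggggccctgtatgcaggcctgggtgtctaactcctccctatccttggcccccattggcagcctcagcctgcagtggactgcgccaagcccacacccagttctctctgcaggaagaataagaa
Prx (chr7:27499074-27499373, plus strand): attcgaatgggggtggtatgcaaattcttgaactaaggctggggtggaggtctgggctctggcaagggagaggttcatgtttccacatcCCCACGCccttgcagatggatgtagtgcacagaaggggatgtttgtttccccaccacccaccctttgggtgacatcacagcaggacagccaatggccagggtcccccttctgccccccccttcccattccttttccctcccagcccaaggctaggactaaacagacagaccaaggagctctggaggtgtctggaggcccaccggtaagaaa
Itih5 (chr2:10153293-10153592, plus strand): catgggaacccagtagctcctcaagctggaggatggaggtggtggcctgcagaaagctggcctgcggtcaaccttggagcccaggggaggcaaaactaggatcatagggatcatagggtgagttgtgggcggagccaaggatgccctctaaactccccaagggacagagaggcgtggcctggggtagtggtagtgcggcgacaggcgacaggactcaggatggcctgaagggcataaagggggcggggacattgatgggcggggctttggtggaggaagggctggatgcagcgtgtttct
Among the 4 matched promoters these searches found 1 EGR motif, on the minus strand in Prx, and no SOX motif. Of 32851 promoters of the same length, 5.04% held that EGR motif and 28.6% held a SOX motif, so a window without a SOX motif was the usual case. The promoters of S100b, Prx, Ngfr and Itih5 had 53.7%, 56.7%, 71.7% and 60.7% G and C, against a median of 52.7% over all promoters. These matches describe letters in the windows and nothing about binding.

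Read counts ran from 5522193 to 13813329 in the circulating and from 17532558 to 23424039 in the muscle libraries. The 18S ribosomal RNA, which the table lists under 2 symbols, took 42.9% to 60.1% of counts in circulating and 27.8% to 32.3% in muscle libraries. Levels are counts per 1000000 (CPM) of the library size scaled by the trimmed mean of M values (TMM). A background was read in each library from 561 genes of sensory receptors (vomeronasal, taste and trace amine), taken as silent in mesenchymal cells. Their median, in reads per exon kilobase and 1000000 reads other than 18S, was 0.823, 1.14 and 0.877 in circulating libraries 1, 2 and 3, against 0.330, 0.406 and 0.273 in muscle libraries 1, 2 and 3. The receptor level was thus higher in each circulating than in each muscle library, and low values are read beside it. Markers of FAPs were present in both groups: each of 11 FAP identity genes lay above the receptor level in all 6 libraries, with Pdgfra, the receptor that marks FAPs, at 202 ± 16.5 CPM in circulating, against 610.3 ± 209.8 CPM in muscle FAPs (SD, n = 3 each).

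S100b, Cdh19 and Itih5 were lower in every circulating library than in any muscle library. That absence of overlap held for 11.4% of all tested genes in the lower and 16.2% in the higher direction. With edgeR's quasi-likelihood test none of the 8 members passed an adjusted p of 0.05 over all genes, and 0.109% of the 20248 genes tested did, 0.104% lower and 0.00494% higher in circulating FAPs. At an unadjusted p under 0.05 in edgeR, 4 of the 7 tested members were lower in circulating FAPs (S100b, Cdh19, Prx and Itih5) and 0 were higher, while 9.64% of all tested genes were lower and 9.71% higher by that measure. DESeq2 put the same 4 genes past an adjusted p of 0.05, where it also put 10.3% of its genes lower and 1.15% higher, and limma-voom put S100b past it. Sox10 did not pass the low-count filter of edgeR. DESeq2 gave it a log2 fold change of 0.87 (DESeq2 unadjusted p = 0.516) and no adjusted p. The median log2 fold change was -1.29 over the 7 tested members and 0.15 over all tested genes. Over the 11 FAP identity genes it was -1.19, close to that of the members. Since the low-count filter was reached more often in muscle libraries for S100b and Prx, the median of the members is a description and no support. In bulk RNA, fewer cells of a type and less RNA per cell cannot be told apart.

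**Figure D1:**
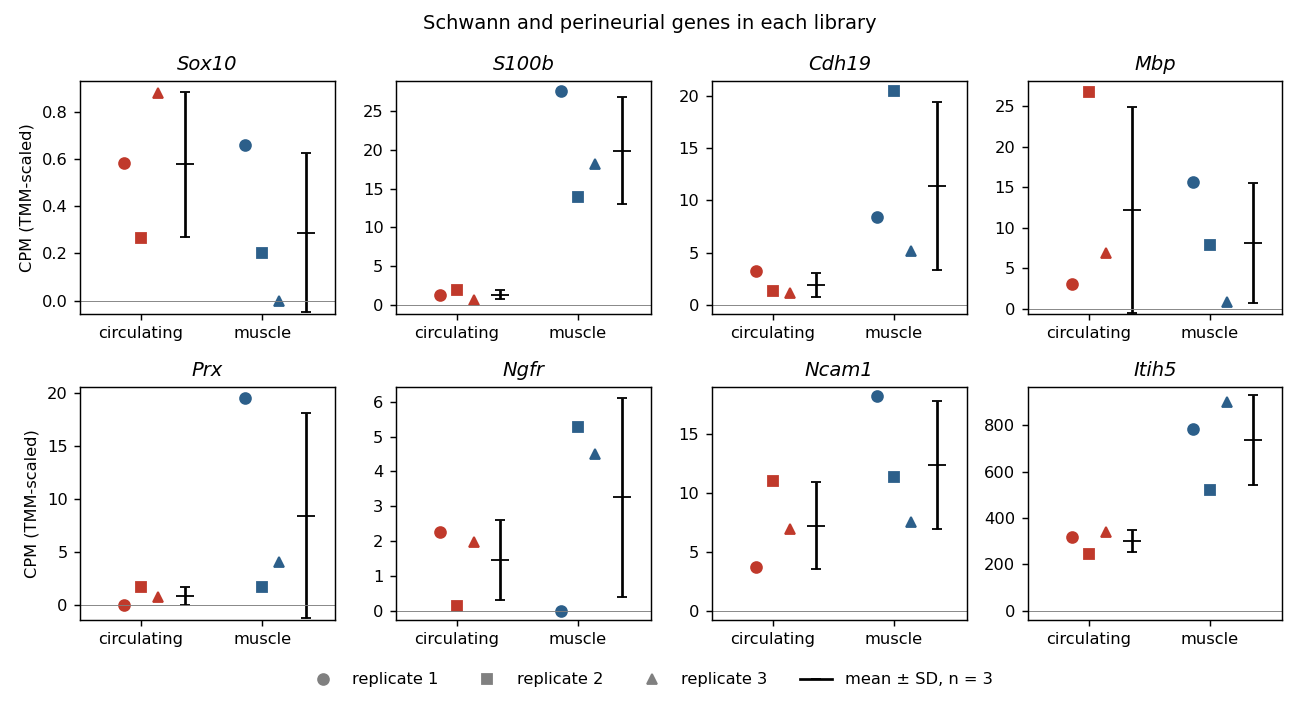
TMM-scaled CPM of each of the 8 genes (vertical axes, linear, each panel on its own scale) in the 3 circulating FAP libraries (left, red) and the 3 muscle FAP libraries (right, blue); marker shape gives the replicate and the black bar the mean ± SD. S100b, Cdh19 and Itih5 are separated between the groups, Sox10 stays under 1 CPM, and 1 library stands high for Mbp in circulating FAPs and for Prx in muscle FAPs.

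Sox10, the transcription factor that defines the Schwann lineage, was all but missing. Its counts were 8, 2 and 8 reads in circulating replicates 1, 2 and 3, against 11, 4 and 0 reads in muscle replicates 1, 2 and 3. That is 0.576 ± 0.306 CPM in circulating, against 0.287 ± 0.336 CPM in muscle FAPs, and the groups overlapped. The count of 0 in muscle replicate 3 allows a level of up to 0.147 CPM. Per exon length Sox10 lay below the median receptor gene in all 6 libraries, at 0.185 to 0.706 times that median in circulating and 0 to 0.831 times in muscle FAPs. Sox10 transcript above background was therefore not detectable at this depth in either group.

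S100b encodes a small calcium-binding protein that is a standard stain for Schwann cells and is also made by adipocytes and chondrocytes. Its levels were 1.31, 1.86 and 0.659 CPM in circulating replicates 1, 2 and 3, against 27.5, 13.96 and 18.2 CPM in muscle replicates 1, 2 and 3. The lowest muscle library was well above the highest circulating one, and the counts behind these levels were 18, 14 and 6 reads in circulating and 461, 275 and 372 reads in muscle FAPs. The log2 fold change was -3.96 ± 0.75 (SE; edgeR adjusted p = 0.0838), which did not pass, while DESeq2 gave -4.15 (adjusted p = 7.70e-08) and limma-voom -3.97 (adjusted p = 0.0370). Among the 8972 tested genes with a mean level of 2 to 20 CPM, where S100b lies, 9.73% were lower without overlap and the median log2 fold change was 0.07. Over the receptor genes S100b stood at 1.87, 2.66 and 1.09 times the median in circulating replicates 1, 2 and 3, against 71.6, 36.03 and 58.0 times in muscle replicates 1, 2 and 3. No receptor gene reached S100b in any muscle library, whereas 81, 54 and 257 of the 561 did in circulating replicates 1, 2 and 3. With the receptor level subtracted from all counts, a setting added after seeing the data, the log2 fold change was -4.47 (edgeR adjusted p = 0.299).

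Cdh19, a cadherin of Schwann cell precursors and Schwann cells, had a like split with a smaller difference. It was at 3.21, 1.33 and 1.098 CPM in circulating replicates 1, 2 and 3, against 8.42, 20.5 and 5.18 CPM in muscle replicates 1, 2 and 3. The groups did not overlap, though circulating replicate 1 and muscle replicate 3 came close, and muscle replicate 2 stood above the other muscle libraries. For Cdh19 the log2 fold change was -2.57 ± 0.77 (edgeR adjusted p = 0.171; DESeq2 adjusted p = 0.00556). Per exon length Cdh19 was 0.957 ± 0.544 times the receptor median in circulating and 10.5 ± 6.79 times in muscle FAPs, so that its circulating level was that of genes taken as silent. With the receptor level subtracted its log2 fold change was -4.21 (edgeR adjusted p = 0.436).

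Both genes of the myelin sheath varied widely within each group, and the groups overlapped. Mbp encodes myelin basic protein, which compacts the myelin membrane; longer transcripts of the same gene, the Golli forms, are made in lymphoid cells and neurons, and counts per gene do not tell them apart. Mbp was at 2.99, 26.7 and 6.81 CPM in circulating replicates 1, 2 and 3, against 15.7, 7.87 and 0.831 CPM in muscle replicates 1, 2 and 3. Circulating replicate 2 was the highest and muscle replicate 3 the lowest of the 6, and the groups overlapped. The log2 fold change of 0.58 ± 1.05 (edgeR adjusted p = 0.764) became -0.80 without circulating replicate 2 and -0.02 without muscle replicate 3. Mbp was 0.747, 6.68 and 1.97 times the receptor median in circulating replicates 1, 2 and 3, against 7.13, 3.56 and 0.464 times in muscle replicates 1, 2 and 3.

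Prx encodes periaxin, a scaffold that ties the outer myelin membrane of Schwann cells to dystroglycan. Its counts were 0, 13 and 7 reads in circulating replicates 1, 2 and 3, against 327, 33 and 83 reads in muscle replicates 1, 2 and 3. Those are 0, 1.73 and 0.769 CPM in circulating, against 19.5, 1.68 and 4.06 CPM in muscle FAPs, and the 0 allows up to 0.219 CPM. Muscle replicate 1 stood far above the rest, and circulating replicate 2 overlapped muscle replicate 2. The log2 fold change of -3.39 ± 1.26 (edgeR adjusted p = 0.209; DESeq2 adjusted p = 0.0262) was -1.93 without muscle replicate 1. Per exon length Prx lay under the receptor median in all 3 circulating libraries, at 0 to 0.656 times, and over it in all 3 muscle libraries, at 1.15 to 13.5 times. Of its 5579 exon bases 300 are shared with Gm15541 on the other strand in the GENCODE M21 annotation, so reads there cannot be told apart unless counting used strand, which is not stated.

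**Figure D2:**
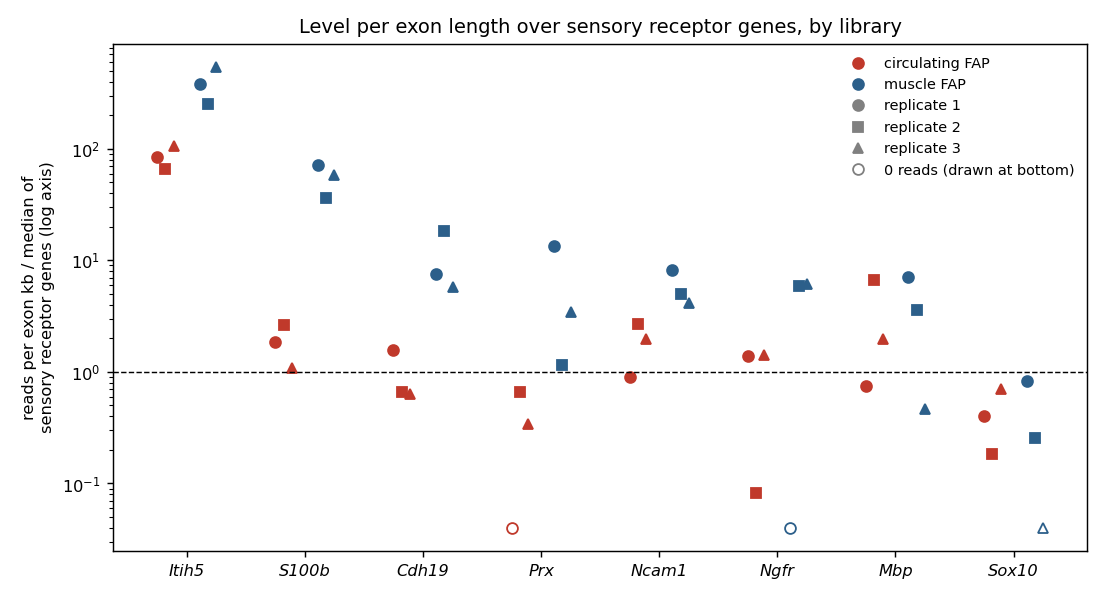
Reads per exon kilobase of each gene divided by the median of 561 sensory receptor genes in the same library (vertical axis, log scale; dashed line at 1), with circulating libraries (red) left of muscle libraries (blue) and open symbols at the bottom for 0 reads. Itih5 and S100b lie above the line in all 6 libraries, Cdh19, Prx and Ncam1 lie above it in all 3 muscle libraries, and Sox10 lies below it in all 6.

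Ngfr and Ncam1 are surface proteins of immature and non-myelinating Schwann cells. Ngfr, the low-affinity neurotrophin receptor p75, was at 2.26, 0.133 and 1.98 CPM in circulating replicates 1, 2 and 3, against 0, 5.28 and 4.50 CPM in muscle replicates 1, 2 and 3. The 2 highest libraries were muscle replicates 2 and 3, but muscle replicate 1 had no read, which allows up to 0.179 CPM, and circulating replicate 2 had 1 read. Ngfr had a log2 fold change of -1.13 ± 1.21 (edgeR adjusted p = 0.602), and with limma-voom its sign turned, at 0.23 (adjusted p = 0.955). Over the receptor genes Ngfr was at 0.959 ± 0.759 times the median in circulating and 4.01 ± 3.48 times in muscle FAPs.

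Ncam1 encodes the neural cell adhesion molecule, which muscle satellite cells and regenerating fibres also carry. It was at 3.72, 11.05 and 6.92 CPM in circulating replicates 1, 2 and 3, against 18.2, 11.3 and 7.53 CPM in muscle replicates 1, 2 and 3. Circulating replicate 2 lay within the range of the muscle libraries. The log2 fold change of -0.78 ± 0.69 (edgeR adjusted p = 0.525) was 0.01 with scaling on abundant genes. Per exon length Ncam1 was 1.85 ± 0.899 times the receptor median in circulating and 5.74 ± 2.10 times in muscle FAPs. Of its 8664 exon bases 417 are shared with Gm11149 on the other strand.

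Itih5, the perineurial member, was far above the receptor level in both groups. It encodes a heavy chain of the inter-alpha-trypsin inhibitor family, secreted proteins that bind hyaluronan, and it is made by adipose and other stromal cells as well as by perineurial cells. Itih5 was at 318, 246 and 340 CPM in circulating replicates 1, 2 and 3, against 784, 523 and 903 CPM in muscle replicates 1, 2 and 3. The groups did not overlap, and the highest library was 1.39 times the lowest in circulating and 1.72 times in muscle FAPs, less than for the other members without a count of 0. The log2 fold change was -1.29 ± 0.33 (edgeR adjusted p = 0.143; DESeq2 adjusted p = 0.0393). Among the 4736 tested genes at 20 CPM or more, 28.8% were lower without overlap and the median log2 fold change was -0.65. When TMM factors came from abundant genes alone, the median over all tested genes shifted by 0.70, and the result was -0.56 for Itih5 (edgeR adjusted p = 0.192); it was -0.59 with upper quartile factors and -0.77 with the receptor level subtracted. Per exon length Itih5 was 85.5 ± 19.9 times the receptor median in circulating and 392.2 ± 144 times in muscle FAPs, and no receptor gene reached it in any library.

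Ranked per exon length over the receptor genes, Itih5 came first in both groups, clear of the next member. In muscle FAPs S100b came second at 55.2 ± 17.9 times the receptor median, also clear of the next, followed by Cdh19 at 10.5 ± 6.79, Prx at 6.03 ± 6.57, Ncam1 at 5.74 ± 2.10, Ngfr at 4.01 ± 3.48, Mbp at 3.72 ± 3.33 and Sox10 at 0.362 ± 0.425. In circulating FAPs Mbp came second at 3.13 ± 3.13, then S100b at 1.87 ± 0.784, Ncam1 at 1.85 ± 0.899, Ngfr at 0.959 ± 0.759, Cdh19 at 0.957 ± 0.544, Sox10 at 0.432 ± 0.262 and Prx at 0.331 ± 0.328. Below the second rank in muscle and below the first in circulating FAPs, each neighbour in the order overlapped the next. The highest muscle library was not the same for all members: it was replicate 1 for Sox10, S100b, Mbp, Prx and Ncam1, replicate 2 for Cdh19, and replicate 3 for Itih5 and Ngfr; in CPM the highest for Ngfr was replicate 2.

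**Figure D3:**
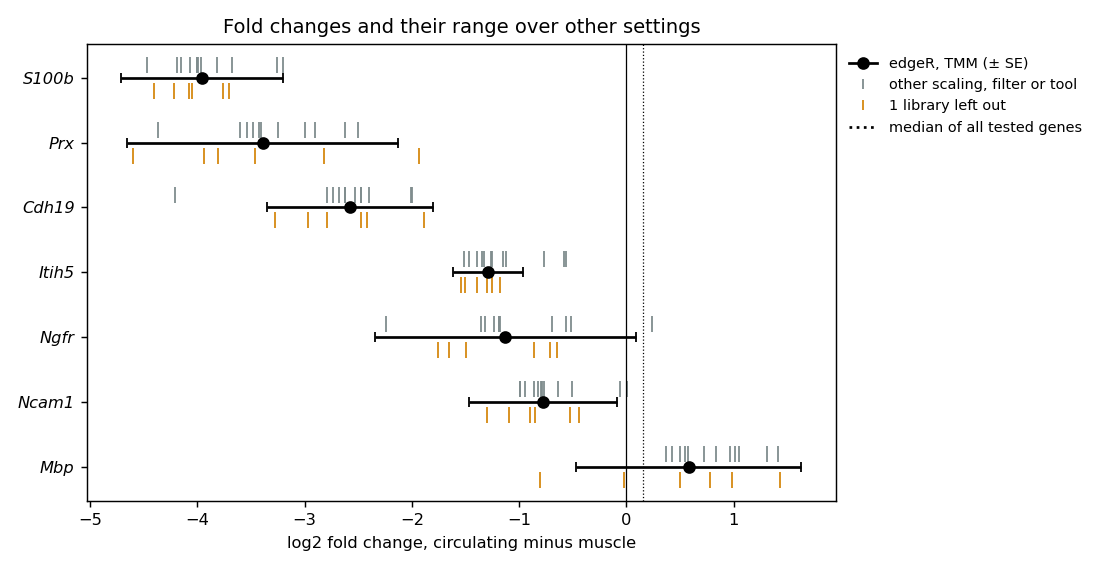
Log2 fold changes, circulating minus muscle FAPs (horizontal axis), of the 7 tested genes: black points with SE bars are edgeR with TMM scaling, grey ticks other scalings, filters and tools, and orange ticks fits with 1 library left out. S100b, Prx, Cdh19 and Itih5 stay below 0 in every setting drawn, whereas Mbp, Ncam1 and Ngfr have ticks on both sides of 0.

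Other genes of myelinating Schwann cells gave no shared direction. Of 20 genes 15 were tested, 0 passed over all genes in edgeR, DESeq2 or limma-voom, and at an unadjusted p under 0.05 in edgeR 1 was lower and 2 were higher in circulating FAPs. Pmp22, a membrane protein of compact myelin that fibroblasts also make, was the most abundant, at 414, 289.6 and 421 CPM in circulating replicates 1, 2 and 3, against 624, 508 and 612 CPM in muscle replicates 1, 2 and 3 (log2 fold change -0.63 ± 0.31, edgeR adjusted p = 0.285). Egr2, the myelination factor that is also an immediate early gene in many cells, was at 70.9 ± 27.6 CPM in circulating, against 68.3 ± 62.0 CPM in muscle FAPs. The list had a median log2 fold change of 0.10, beside the 0.15 of all tested genes, and its sign turned without circulating replicate 2, circulating replicate 3 or muscle replicate 1.

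Of 20 further genes of the Schwann lineage outside myelin, 15 were tested and 0 passed in edgeR; DESeq2 and limma-voom each put 1 lower, Matn2. At an unadjusted p under 0.05 in edgeR 1 was lower and 2 were higher. Matn2, a matrilin of the extracellular matrix, was at 9.41, 7.32 and 5.60 CPM in circulating replicates 1, 2 and 3, against 46.4, 68.0 and 92.5 CPM in muscle replicates 1, 2 and 3 (log2 fold change -3.21 ± 0.61, edgeR adjusted p = 0.0838; DESeq2 adjusted p = 2.69e-07). The groups were far apart, as for S100b. Scn7a, a sodium channel of non-myelinating Schwann cells, was at 83.7 ± 68.2 CPM in circulating, against 139.9 ± 12.2 CPM in muscle FAPs and overlapped. The list median was 0.95, and 5 genes were higher and 1 lower without overlap, where 16.2% and 11.4% of all tested genes were. That median was 0.03 without circulating replicate 1, 0.16 without circulating replicate 3 and 0.36 with limma-voom.

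Among 10 other perineurial genes, of which 9 were tested, 0 passed in edgeR, and DESeq2 and limma-voom each put 1 lower, Klf5. At an unadjusted p under 0.05 in edgeR 1 was lower and 1 higher. Klf5, a zinc finger transcription factor, was at 3.94 ± 1.43 CPM in circulating, against 47.7 ± 25.4 CPM in muscle FAPs (log2 fold change -3.59 ± 0.72, edgeR adjusted p = 0.0909). Ntn4, a netrin and the most abundant of the list, was at 73.5 ± 52.8 CPM in circulating, against 47.6 ± 12.8 CPM in muscle FAPs, and overlapped (log2 fold change 0.63 ± 0.60). Tjp1, a tight junction scaffold, was at 53.4 ± 41.6 CPM in circulating, against 38.3 ± 9.997 CPM in muscle FAPs, and also overlapped (log2 fold change 0.48 ± 0.74). The tight junction proteins Cldn1 and Ocln, chosen after their values were seen, were at 2.35 ± 1.56 and 2.94 ± 1.87 CPM in circulating and at 3.12 ± 2.47 and 1.22 ± 0.258 CPM in muscle FAPs. The list median of 0.48 turned negative with DESeq2, with no filter, with the receptor level subtracted, and without circulating replicate 3 or muscle replicate 3.

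Genes of endoneurial fibroblasts, the mesenchymal cells inside nerve bundles, had a median log2 fold change of -1.33, beside 0.15 for all tested genes and -0.65 for those at 20 CPM or more; it was -0.62 when abundant genes set the scaling. Of 8 genes, all tested and all above the receptor level in all 6 libraries, 0 passed in edgeR, 4 were lower at an unadjusted p under 0.05, and DESeq2 put 4 and limma-voom 1 lower. Abca8a, a lipid transporter, was at 247 ± 20.2 CPM in circulating, against 787 ± 253 CPM in muscle FAPs (-1.67 ± 0.34, edgeR adjusted p = 0.0909), and Apod, a lipid carrier, at 190.1 ± 42.5 CPM in circulating, against 550.3 ± 168 CPM in muscle FAPs (-1.53 ± 0.36, edgeR adjusted p = 0.127). FAPs express Abca8a and Apod too. Sox9, a relative of Sox10 chosen after its values were seen, was at 6.15 ± 1.37 CPM in circulating, against 72.4 ± 36.3 CPM in muscle FAPs (-3.56 ± 0.67, edgeR adjusted p = 0.0838). Of the family of SoxE factors only Sox9 was thus above 5 CPM in a group, with Sox8, also chosen after its values were seen, at 1.104 ± 0.768 CPM in circulating, against 1.66 ± 0.504 CPM in muscle FAPs.

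Of 8 genes of the neuregulin axis and its laminin partners 0 passed in edgeR, 1 was lower at an unadjusted p under 0.05, and DESeq2 put 1 and limma-voom 0 lower. The laminin chain Lama2 was at 105 ± 63.4 CPM in circulating, against 176 ± 32.5 CPM in muscle FAPs, and the integrin chain Itgb1 at 142 ± 44.6 CPM in circulating, against 164 ± 43.0 CPM in muscle FAPs; both overlapped. The list median was -0.46, but 0.26 when abundant genes set the scaling and 0.25 with upper quartile factors. Of 12 ligands and partners of Ngfr 10 were tested, 0 passed in edgeR, 3 were lower at an unadjusted p under 0.05, and DESeq2 put 3 and limma-voom 1 lower. The most abundant were Ntrk2, a neurotrophin receptor, at 59.7 ± 27.4 CPM in circulating, against 209 ± 88.0 CPM in muscle FAPs (-1.81 ± 0.50, edgeR adjusted p = 0.155), and Maged1, which binds the cytoplasmic part of Ngfr, at 93.1 ± 24.4 CPM in circulating, against 214 ± 33.0 CPM in muscle FAPs (-1.20 ± 0.39, edgeR adjusted p = 0.180). Their list had a median of -0.93, but -0.21 when abundant genes set the scaling and -0.24 with upper quartile factors.

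Among relatives of the members, S100 genes were far more abundant than S100b. S100a6 was at 2358 ± 1261 CPM in circulating, against 2694 ± 350 CPM in muscle FAPs, and S100a10 at 1317 ± 366 CPM in circulating, against 2094 ± 217 CPM in muscle FAPs. Over the whole list of 17 relatives, of which 16 were tested, 0 passed in edgeR, 4 were lower and 1 higher at an unadjusted p under 0.05, DESeq2 put 3 lower and limma-voom 0. The median of the relatives was -0.23, but 0.46 when abundant genes set the scaling and 0.43 with upper quartile factors. Tnfaip6, which moves inter-alpha-trypsin heavy chains onto hyaluronan and was chosen after its values were seen, was at 479 ± 78.9 CPM in circulating, against 1141 ± 277 CPM in muscle FAPs (-1.25 ± 0.30, edgeR adjusted p = 0.130), beside the -1.29 of Itih5.

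**Figure D4:**
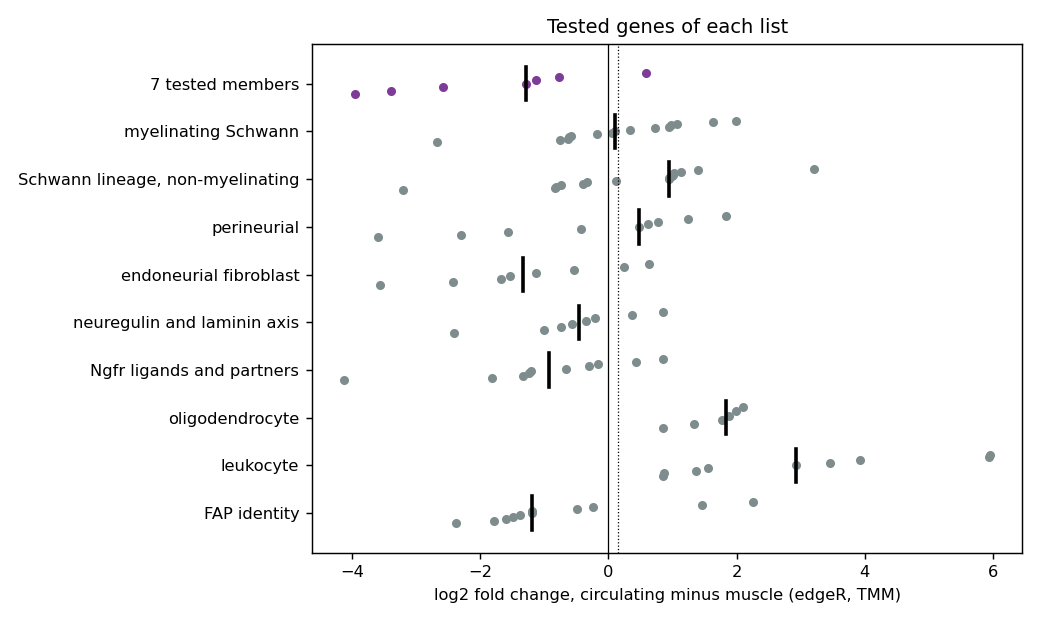
Log2 fold changes, circulating minus muscle FAPs, of the tested genes of each list (points; horizontal axis), with the list median as a black bar and the median of all tested genes, 0.15, as a dotted line. The myelinating Schwann list centres near that line, the members and the endoneurial and FAP identity lists lie below it, and the leukocyte and oligodendrocyte lists above it.

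Leukocytes and oligodendrocytes are other cells that can carry Mbp transcripts. The 11 leukocyte markers summed to 222, 115 and 91.4 CPM in circulating replicates 1, 2 and 3, against 13.3, 12.4 and 18.04 CPM in muscle replicates 1, 2 and 3. Their sum was highest in circulating replicate 1, where Mbp was lowest among circulating libraries. Of these markers 0 passed in edgeR, 5 were higher at an unadjusted p under 0.05, and DESeq2 put 2 and limma-voom 1 higher; the list median was 2.93. Laptm5, a lysosomal membrane protein of blood cells, was at 107, 29.3 and 7.80 CPM in circulating replicates 1, 2 and 3, against 0.657, 0.609 and 1.03 CPM in muscle replicates 1, 2 and 3. S100a8, a calcium-binding protein of neutrophils, was at 6.42, 4.39 and 61.4 CPM in circulating replicates 1, 2 and 3, against 1.67, 0.355 and 7.38 CPM in muscle replicates 1, 2 and 3. Replicate 2 was the highest circulating library, as for Mbp, for Cd52, Lyz2, Cd3e, Itgam, Coro1a and Tyrobp, read after their values were seen. Replicate 1 was highest for Laptm5 and S100a9, and replicate 3 for Ptprc, Cd79a and S100a8. The 8 oligodendrocyte markers stand for a second glial cell with Mbp and Sox10. They summed to 12.8 to 27.1 CPM in circulating, against 5.72 to 6.90 CPM in muscle libraries. Among circulating libraries their sum was lowest in replicate 1 and highest in replicate 2, the same order as Mbp. Among muscle libraries their sum was lowest in replicate 3, as for Mbp, but highest in replicate 2, whereas Mbp was highest in replicate 1. None of these 8 lay above the receptor median in all 6 libraries. In edgeR, DESeq2 or limma-voom 0 passed, and 4 were higher at an unadjusted p under 0.05 in edgeR, with a list median of 1.83. The 2 most abundant were Mobp and Opalin. Mobp was at 2.77, 9.58 and 3.51 CPM in circulating replicates 1, 2 and 3, against 1.73, 1.02 and 1.52 CPM in muscle replicates 1, 2 and 3. Opalin was at 4.12 ± 0.156 CPM in circulating, against 1.20 ± 0.631 CPM in muscle FAPs. Olig2, chosen after its values were seen, was not tested. It had 0 reads in all 3 circulating libraries and 0, 13 and 8 in muscle replicates 1, 2 and 3. The receptor level was itself higher in the circulating libraries, as given above. The part of leukocytes or oligodendrocytes in the Mbp values was not tested.

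The remaining marker lists had no gene past the threshold in edgeR, apart from FAP identity. Of 9 muscle satellite cell markers, which bear on Ncam1, 8 were tested. At an unadjusted p under 0.05 in edgeR 2 were higher, and DESeq2 put 1 higher. The 9 markers summed to 25.6 to 81.9 CPM in circulating, against 36.4 to 72.1 CPM in muscle libraries. The 2 most abundant went opposite ways. Des was at 2.13 to 14.6 CPM in circulating, against 18.04 to 42.9 CPM in muscle libraries. Chodl was at 4.66 to 46.3 CPM in circulating, against 2.40 to 4.52 CPM in muscle libraries. Myod1, chosen after its values were seen, was not tested. It had 4, 3 and 0 reads in circulating replicates 1, 2 and 3 and 0 in all 3 muscle libraries. The 6 adipocyte markers, which bear on S100b, summed to 14.8 to 77.3 CPM in circulating, against 20.7 to 171 CPM in muscle libraries, with 0 called by edgeR, DESeq2, limma-voom or an unadjusted p under 0.05. Most of each sum was Fabp4. It was at 14.7, 7.98 and 71.8 CPM in circulating replicates 1, 2 and 3, against 13.5, 162 and 42.6 CPM in muscle replicates 1, 2 and 3. The sums therefore follow 1 gene. Neuron and axon markers summed to 21.3 to 49.5 CPM in circulating, against 19.997 to 40.1 CPM in muscle libraries with 0 called by any of these. Of 6 melanocyte markers 1 was lower at an unadjusted p under 0.05, and they summed to 17.1 to 33.3 CPM in circulating, against 20.8 to 57.1 CPM in muscle libraries. Endothelial markers summed to 14.2 to 32.6 CPM in circulating, against 19.6 to 84.9 CPM in muscle libraries, with 0 called. Pericyte and smooth muscle markers summed to 45.4 to 53.9 CPM in circulating, against 66.4 to 128 CPM in muscle libraries, with 1 lower and 1 higher at an unadjusted p under 0.05 and 1 lower by DESeq2. Of 11 FAP identity genes 1 was lower in edgeR, Gsn, which encodes gelsolin, at 14589 ± 1501 CPM in circulating, against 33310.5 ± 3785 CPM in muscle FAPs (-1.19 ± 0.17, adjusted p = 0.0341), and 7 were lower and 2 higher at an unadjusted p under 0.05.

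The gene of the other lists most like each member was sought over the 6 libraries among 112 genes with a mean of at least 2 CPM, by Pearson's r of log2(CPM + 1), as a description of points that share library and scaling. Itih5 ran closest to Lum (r = 0.99) and Abca8a (r = 0.99), both abundant in FAPs, and S100b to Klf5 (r = 0.98) and Gsn (r = 0.97). Cdh19 ran closest to S100a1 (r = 0.94) and Rbfox3 (r = 0.88), Prx to Pdgfra (r = 0.85) and Slc2a1 (r = 0.84), and Ncam1 to Crabp2 (r = 0.92) and Cldn1 (r = 0.88). Mbp ran closest to Acta2 (r = 0.88) and Sort1 (r = 0.87), and Ngfr to Chrna1 (r = 0.86) and Fabp4 (r = 0.80).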

How the data were processed

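Total RNA of 3 circulating and 3 muscle libraries was sequenced after a TruePrep library kit, per the labels. The values are unnormalised read counts by gene symbol, as the authors deposited them in 1 file. The tools named are Trim Galore, STAR and featureCounts, with build GRCm39, per the submitters' processing notes; versions, options and annotation are not given in the sources used here.

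Differential expression was tested on the whole table with edgeR 4.0.16 in R 4.3.3 (quasi-likelihood F test, robust, TMM scaling, default filterByExpr, Benjamini-Hochberg adjustment, threshold 0.05), and 20248 of 33276 genes were tested. The fit was also run on simulated data in which only genes of at least 20 CPM were changed. Among the tested members only Itih5 lies at that level, so the simulation does not cover the others. Standard errors are the fold change divided by the square root of F. The filter asks for 0.638 CPM in 3 libraries; S100b and Prx reached it in 2 circulating and 3 muscle libraries. DESeq2 1.42.0, limma-voom (limma 3.58.1), other scalings and filters, a replicate block and each library left out were alternatives. Exon lengths are unions of GENCODE M21 exons (GRCm38), matched by symbol for 91.5% of genes; for genes with many transcript forms such a union is longer than any 1 transcript. The genes set to be named were the members, the 2 most abundant and any called gene of each of 16 lists (166 genes), and the most alike genes. Not every gene under this rule is named in the text, and some genes outside it are. Members, lists and motifs were chosen with earlier results of these data known. Values of 1 list gene are not reported here.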

Additional observations from a re-analysis of the deposited data

How the results depend on the processing

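The count of 22 genes past the threshold over the whole table was 1542 with DESeq2, 160 with no filter, 91 with limma-voom, 81 with a stricter filter of 1 CPM in all 3 libraries of a group, 43 with RLE size factors, 7 when abundant genes alone set the scaling, 2 with upper quartile factors, 1 with the receptor level subtracted, and 0 to 65 with 1 library left out (65 when circulating replicate 1 was left out, 0 for muscle replicate 3 and 1 for each other library). The count of 0 members was 4 with DESeq2, 1 (S100b) with no filter, 1 (S100b) with limma-voom and 0 in all other settings. S100b passed with DESeq2 (-4.15), no filter (-4.19, edgeR adjusted p = 0.0333) and limma-voom (-3.97), and its adjusted p over all alternatives ran from 7.70e-08 to 0.299; Cdh19 (-2.74), Prx (-3.54) and Itih5 (-1.47) passed with DESeq2. The sign turned for Mbp when circulating replicate 2 (-0.80) or muscle replicate 3 (-0.02) was left out, with 1 library left out giving -0.80 to 1.43 in all, for Ngfr with limma-voom (0.23) and for Ncam1 with scaling on abundant genes (0.0074). Ngfr did not pass the stricter filter, and Prx gave no value with the receptor level subtracted. With the mean in place of the median of the receptor genes, 1 member (Itih5) and not 2 (Itih5 and S100b) lay above them in all 6 libraries. The cause of these shifts was not tested. With a replicate block the count of 22 became 1 and that of the members stayed at 0; same-numbered libraries correlated at 0.01, 0.04 and 0.01 in their deviations, no label says that they share a mouse, and muscle replicate 3, for one, correlated better with circulating replicate 1 (0.04). Sox10, Prx and Ngfr each had a count of 0 in 1 library, and these zeros did not fall in the shallowest library.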
